A study of Drosophila melanogaster with 150 samples.

Results

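The genes described here encode proteins of the cytoplasmic ribosome of Drosophila melanogaster. They were taken as every gene whose symbol begins RpL or RpS followed by a digit, or RpLP followed by a digit, where that was the only symbol of the probe set. This gave 41 of the 11981 genes with such a probe set on the array. Where a gene had several such probe sets, the one with the highest mean over the 150 arrays stood for it. Release 6 of the annotation lists 92 genes with symbols of this form, so the 41 are part of the family, and the others, RpL27A among them, were not analysed here. Of the 41 members, 18 were named for the large subunit, 15 for the small subunit and 3 for the stalk, and 5 had a symbol ending in -like.

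The arrays measured whole-body RNA of adult males from 75 recombinant inbred lines, called roo lines, to ask how lead in the diet and the genotype of the line act on gene expression. Each line has an array labelled lead, from food with 250 uM lead acetate, and an array labelled control, from standard food with 250 uM sodium acetate, which gives 75 arrays per diet. In each vial 20 pairs of parents laid for 3 days on 10 ml of food at 25 degrees C, and 65 sons aged 5 to 10 days were pooled. RNA came from 50 mg of frozen flies, so an array is a pool of whole males from a vial, and a line on a diet has no second array. All flies were males of inbred lines, and no tissue was separated. Array medians lay between 5.29 and 5.55 on the log2 scale, and each array's correlation with the rest had a median between 0.954 and 0.987. Lead and control values of the same line were barely related, with a median correlation over lines of 0.0565 across 18769 probe sets. Whether every array carries its true line label was not tested, and the line and paired diet values given here rest on those labels. The diets likewise follow the array titles, which read Lead Acetate treated or Untreated. Arrays titled Untreated are called labelled control here.

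A ribosome is built from a small subunit, which reads the messenger RNA, and a large subunit, which joins amino acids. RpLP0, RpLP1 and RpLP2 form the stalk of the large subunit, where elongation factors bind. Most ribosomal protein genes of the fly are needed by every cell, and losing a copy of many of them slows development and thins the bristles, the Minute phenotype. Some have a duplicate that is used mainly in the germ line, such as RpL22-like, RpS19b and RpS5b. The -like genes include counterparts of yeast proteins that act in assembling the large subunit.

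The ribosomal protein genes fell into 29 members with a high signal of low SD and 12 with a lower signal of mostly higher SD. The dividing level of 11 on the log2 scale was chosen after the values were seen, since RpL27 averaged 11.41 and the next member, RpL34a, averaged 9.73. The 29 members above 11 were 15 of the large subunit, 11 of the small subunit and all 3 of the stalk, and their means ran from 11.41 to 13.35. The 12 members below 11 were 3 of the large subunit, 4 of the small subunit and all 5 with a -like symbol. The median of all probe sets was 5.43, and 30 of the 41 members were among the top 5% of probe sets by mean signal. Signals of different probe sets also depend on their probes, so the order of members is one of signal and not of transcript amount. Of the 41 probe sets, 14 have the suffix _s_at, which the array maker gives to probes that match several transcripts.

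RpL41, which encodes a very short basic peptide of the large subunit, had the highest signal, at 13.35 ± 0.0840 (SD, n = 150 arrays). Its SD was lower than that of nearly every other probe set, at the 0.0107th percentile of all of them. RpLP1, a stalk protein, followed at 13.12 ± 0.130, and RpS28b, of the small subunit, at 12.96 ± 0.101. RpL15 and RpL37A, both of the large subunit, averaged 12.92 ± 0.104 and 12.91 ± 0.122. RpL32, often used as the reference gene in quantitative PCR of flies, averaged 12.61 ± 0.150 and ran between 12.11 and 12.92. RpS27A and RpL40, which are made as fusions with ubiquitin, averaged 12.74 ± 0.104 and 12.22 ± 0.179.

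**Figure D1:**
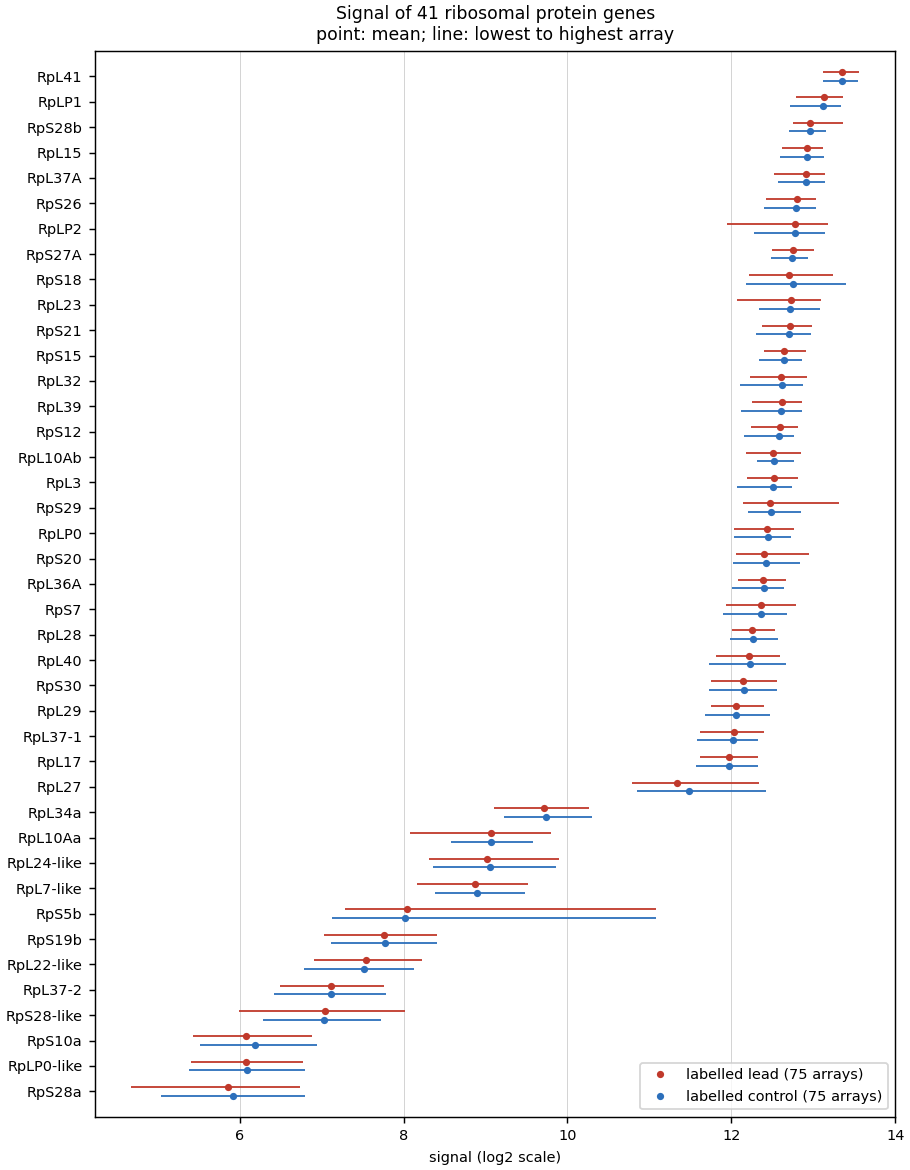
Signal of the 41 ribosomal protein genes on the log2 scale, ordered by mean, with the 75 arrays labelled lead in red above the 75 labelled control in blue. Points are means and lines run from the lowest to the highest array. RpL27 and RpS5b have long ranges for their level, and the means of the labelled diets lie close together in every gene.

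The 29 members above 11 had low SDs. Their median SD was 0.143, against a median SD of 0.219 over all probe sets, and 28 of the 29 lay below that value. The exception was RpL27, with an SD of 0.444, and the next highest among the 29 was RpS18 at 0.216. These signals lie near the top of the scale, whose highest value on any array was 14.04, and whether differences are compressed there was not tested. The 12 members below 11 had a median SD of 0.280, and 2 of them, RpL34a and RpL7-like, lay below the median of all probe sets. The members of largest SD were RpS5b at 0.620, RpL27 at 0.444, RpS28a at 0.421, RpS28-like at 0.370 and RpL24-like at 0.322.

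Single arrays stood apart in a few members of high signal. RpS29, of the small subunit, reached 13.32 on the lead array of line 68, against a median of 12.47, and its next highest value was 13.06 on the lead array of line 86. A second RpS29 probe set of high signal was also highest on that line 68 array, at 13.02. RpLP2 was lowest on the lead array of line 47, at 11.95 against a next lowest value of 12.28. RpL23, of the large subunit, was lowest on the same array, at 12.07 against 12.34. In RpS18, of the small subunit, the 8 highest arrays ran from 13.20 to 13.40 and the next array stood at 13.08.

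Further probe sets of the same gene disagreed in level for 4 members. RpL3, which lies near the catalytic centre of the large subunit, had 12.51 in the chosen probe set and 5.98 and 4.69 in the others, which correlated with it at 0.411 and 0.389. RpS7 had 12.36 and 3.73, with a correlation of -0.15, and RpS30 had 12.15 and 4.89, with a correlation of 0.592. RpS29 had 12.48, 12.03 and 3.95, with correlations of 0.690 and 0.0394. The members are therefore described by their probe set of highest signal.

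The ribosomal protein genes of high signal moved together from array to array. Over the 406 pairs of the 29 members above 11, Pearson correlations over 150 arrays had a median of 0.684 and a minimum of 0.157, and 80.5% exceeded 0.5. All 820 pairs of the 41 members had a median of 0.537, with 5% under -0.47 and 5% over 0.840. Over all pairs of probe sets the median was 0.002, and 2.81% exceeded 0.5. These correlations are descriptions, since all genes share the same arrays, RNA and normalization. The normalization bears on their size: after quantile normalization of the deposited values the 29 members had a median correlation of 0.504, and 399 of the 406 pairs remained positive.

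The subunits did not stand apart in this. Among members without a duplicate, pairs of large subunit genes had a median correlation of 0.622 and pairs of small subunit genes 0.672, and a large with a small subunit gene 0.670. RpL36A and RpS30 were the most alike pair, at 0.910, followed by RpL10Ab with RpS30 at 0.905 and RpL40 with RpL17 at 0.901. RpL17 and RpL40 had the highest median correlation with the other members, at 0.754 and 0.750, before RpL36A, RpS7 and RpS30 at 0.724, 0.721 and 0.716. RpL27 had the lowest among the 29, at 0.305, and RpL41 the next, at 0.481. A first principal component held 67.3% of the variance of the 29 scaled members and 56.7% of that of all 41.

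**Figure D2:**
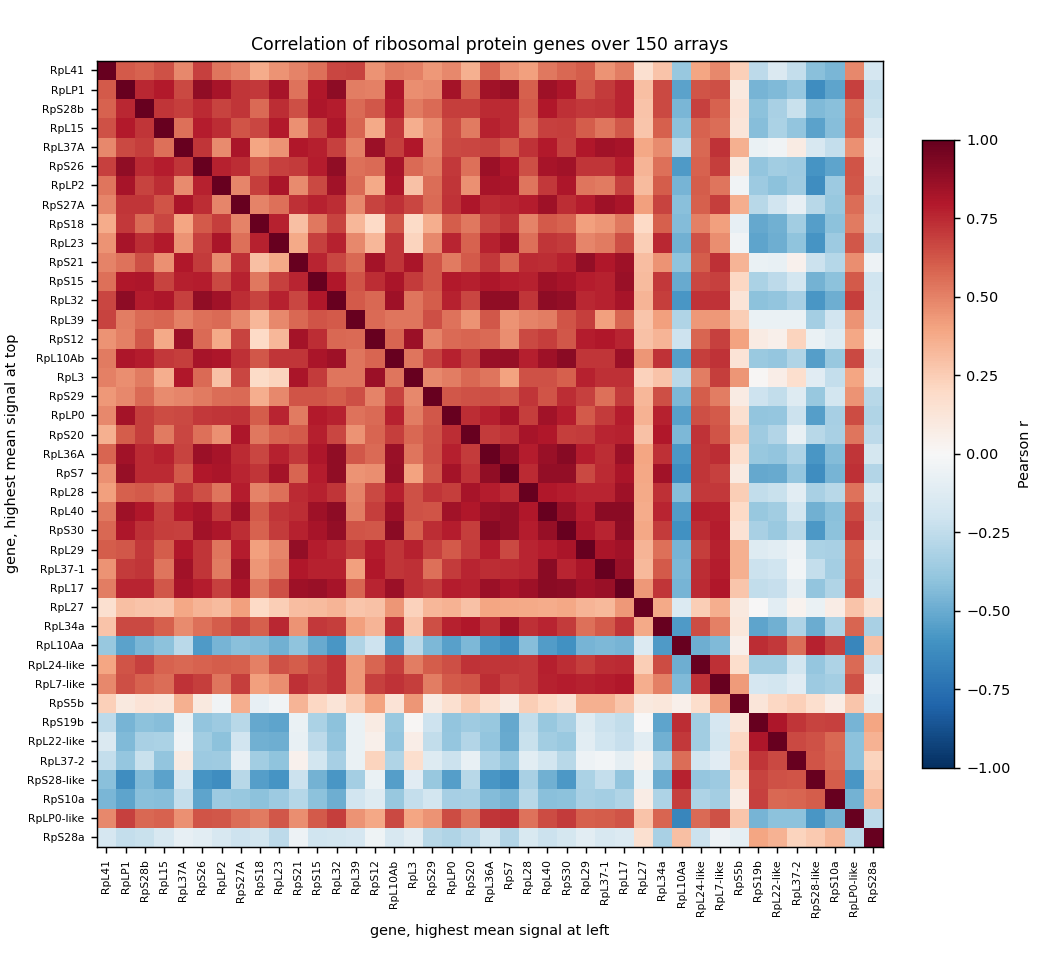
Pearson correlation of every pair of the 41 ribosomal protein genes over 150 arrays, with genes in order of mean signal on both axes. The 29 genes of highest signal form a block with no negative value, in which RpL27 is pale, and RpL10Aa, RpS19b, RpL22-like, RpL37-2, RpS28-like, RpS10a and RpS28a form a second block that is mostly negative towards the first.

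The mean signal of the 29 members ran from 12.26 on the control array of line 44 to 12.80 on the lead array of line 68, with a median of 12.54. It was lower on arrays with more signal of muscle and of male accessory gland. With the mean of 6 muscle markers its Pearson r was -0.55 and Spearman's rho -0.54, and r was -0.55 without the 2 arrays farthest in the markers. With 9 accessory gland markers r was -0.54, rho -0.52 and r without 2 arrays -0.54. All 29 members correlated negatively with both marker means. After quantile normalization r was -0.60 for muscle and -0.43 for accessory gland, and 3 of the 29 members were then positive with accessory gland.

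Markers of the gut ran the other way. With the mean of 12 gut markers, mostly digestive enzymes, r was 0.284, rho 0.278 and r without 2 arrays 0.291, and 25 of the 29 members were positive, against an r of 0.0998 and 17 members after quantile normalization. The difference between the 3′ and the 5′ control probe sets of Act5C, a measure of RNA degradation or incomplete copying, had an r of -0.21 and a rho of -0.22 with the mean of the 29, and an r of -0.19 without 2 arrays. Single members differed widely in this, from -0.61 in RpL23 to 0.426 in RpL3. In whole-body RNA, fewer cells of a type and less RNA per cell cannot be told apart. The part of tissue and RNA quality in the co-variation was not tested, beyond a straight-line fit that removed the Act5C difference. After that fit the median correlation over all 820 pairs of members, of high and low signal, was 0.584, against 0.537 before it.

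A group of duplicated genes of low signal varied apart from the rest. RpL10Aa, RpS19b, RpL22-like, RpL37-2, RpS28-like, RpS10a and RpS28a, grouped after their values were seen, correlated positively with each other in 21 of 21 pairs, with a median of 0.625. With the 29 members above 11 the same 7 genes had a median correlation of -0.32, and 12 of 203 pairs were positive. These medians were 0.616 and -0.25 after quantile normalization and 0.625 and -0.34 after median centring. They were 0.665 and -0.41 within the arrays labelled lead and 0.572 and -0.22 within those labelled control. All these values come from the arrays on which the genes were grouped, so they are no separate support. The other 4 members of low signal that followed the high members were RpL24-like, RpL7-like, RpLP0-like and RpL34a, likewise grouped after their values were seen. Their median correlation with the high members was 0.632, with 116 of 116 positive pairs.

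A duplicate and its counterpart could thus run opposite ways. RpL10Aa averaged 9.07 ± 0.273 and ran from 8.07 on the lead array of line 3 to 9.80 on the lead array of line 84. Its correlation with RpL10Ab, the counterpart of high signal, was -0.55, and its lowest correlation was with RpLP0-like, at -0.65. RpS28-like averaged 7.04 ± 0.370 and correlated with RpS28b at -0.44. RpS28a averaged 5.89 ± 0.421 and correlated with RpS28b at -0.22 and with RpS28-like at 0.265. RpL37-2 averaged 7.12 ± 0.251 and had a correlation of -0.026 with RpL37-1. By contrast RpLP0-like, at 6.09 ± 0.288, correlated with the stalk gene RpLP0 at 0.650. RpL34a, RpL24-like, RpL7-like, RpS5b, RpS19b, RpL22-like and RpS10a had no counterpart among the 41.

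Markers of the testis moved with the 7 genes. With the mean of 18 testis markers the correlation was 0.843 for RpS19b, 0.820 for RpL10Aa, 0.795 for RpL22-like, 0.790 for RpS28-like, 0.712 for RpL37-2, 0.585 for RpS10a and 0.339 for RpS28a. The same marker mean correlated with the mean of the 29 members at -0.37, and 2 of the 29 were positive. This r was -0.18 after quantile normalization, with 7 positive, -0.50 on arrays labelled lead, with 0 positive, and -0.20 on arrays labelled control, with 8 positive. The 18 markers averaged 7.54 ± 0.246 on arrays labelled lead and 7.51 ± 0.215 on arrays labelled control (SD, n = 75 each), with ranges of 6.84 to 8.16 and 7.10 to 7.95. All 7 genes were also positive with the accessory gland markers and negative with the gut markers. RpS19b, RpL37-2, RpS28-like and RpL22-like correlated with the Act5C difference at 0.570, 0.559, 0.555 and 0.513. The part of testis content and of RNA quality in these values was not tested.

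For 6 of the 7, at most 1 of the 10 most alike genes lay within 100 genes on the chromosome. RpL10Aa was most like CG31482 and CG14391, at 0.941 and 0.935, then ttm2, CG5139 and CG15124 at 0.933, 0.933 and 0.931. RpS28-like was most like CG14658 and Tom70, at 0.877 and 0.870, and RpS19b most like CG15262 and CG16837, at 0.863 and 0.862. RpL22-like was most like Fgop2, CG18545 and sm, at 0.821, 0.818 and 0.817. Next came tHMG2, which encodes a testis chromatin protein, at 0.815 and the proteasome gene Rpt3R at 0.815. RpS10a was most like eIF4E3, a cap-binding factor used in the testis, at 0.772, and RpL37-2 most like Rbp4 at 0.759. RpS28a differed, since its most alike gene was CG15547 at 0.672, 96 genes away on arm 3R, and 6 of its 10 most alike genes lay within 100 genes.

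RpS5b belonged to neither block. Its median correlation with the 29 members above 11 was 0.165, and 0.134 without the 2 arrays on which it was highest. This duplicate of a small subunit gene is known for its use in the ovary. It ran from 7.29 over a median of 7.84 to 11.08 on arrays labelled lead and from 7.13 over 7.78 to 11.08 on arrays labelled control. Its highest values were 11.08 on the lead array of line 213 and 11.08 on the control array of line 38, and the other 148 arrays had a median of 7.81 and a maximum of 9.65. Those same arrays were the highest in the mean of 16 ovary and eggshell markers, at 9.55 and 8.01, against a next highest of 6.34. Over 150 arrays RpS5b correlated with that marker mean at 0.850, and at 0.774 without the pair. The genes most alike to it were Kots at 0.949, gnu, a gene of early embryonic divisions, at 0.934, rpk at 0.932, zpg, a germ-line gap junction gene, at 0.928 and mtrm, a gene of female meiosis, at 0.927. The labels give only males, and the part of female material on those arrays was not tested. Without them the median correlation over all pairs of members was 0.537, as with them.

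RpL27, a large subunit gene on arm 3R, had values in an upper and a lower cluster. Its 150 values left a gap of 0.259 between 11.39 and 11.65, the widest of the 41 members before RpS5b at 0.169, with 42 arrays above at 12.08 ± 0.204 and 108 below at 11.15 ± 0.122. The arrays above ran from 11.65 to 12.42 and those below from 10.79 to 11.39. After quantile normalization the gap was 0.127, with 34 arrays above. The gap is short of the 0.5 set as the limit for calling 2 separate levels, which 0.149% of all probe sets reached and none of the 41 members did. A gap at least as large as that of RpL27, with 8 or more arrays on each side, was found in 1.11% of probe sets. The sides come from the values themselves, so differences between them carry no test.

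The sides of RpL27 did not follow the labelled line. Both arrays were above in 6 lines and both below in 39, while the lead array alone was above in 9 lines and the control array alone in 21. The correlation of lead and control values over lines was 0.102. Arrays of an inbred line share their genotype if the line labels hold, which was not tested. By diet, 15 arrays labelled lead and 27 labelled control were above. Values labelled lead had a minimum, median and maximum of 10.79, 11.19 and 12.34, and those labelled control 10.85, 11.25 and 12.42, so the diets overlapped over nearly their whole range. MtnB, a metallothionein whose signal fell into a high and a low set of arrays, was above 10 on 21 of the 42 upper arrays and on 55 of the 108 lower arrays.

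The other ribosomal protein genes differed far less between the sides of RpL27 than RpL27, which sets them. Above minus below, RpL27 differed by 0.929. The other 40 members differed by a median of 0.048, from -0.043 in RpL22-like to 0.17 in RpS28a. Among the other members above 11, all but RpL41, at -0.0027, were higher on the upper side. Set against their SDs, some shifts were not small. RpS7 differed by 0.094, with SDs of 0.154 above and 0.170 below, and RpL10Ab by 0.079, with 0.111 and 0.123. The share over all probe sets is not given here. With the 28 other members above 11, RpL27 had a median correlation of 0.327 over all arrays. Within a side it moved more closely with them, with medians of 0.509 among the 42 upper arrays and 0.630 among the 108 lower arrays, and 0.537 once each side's mean was removed.

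**Figure D3:**
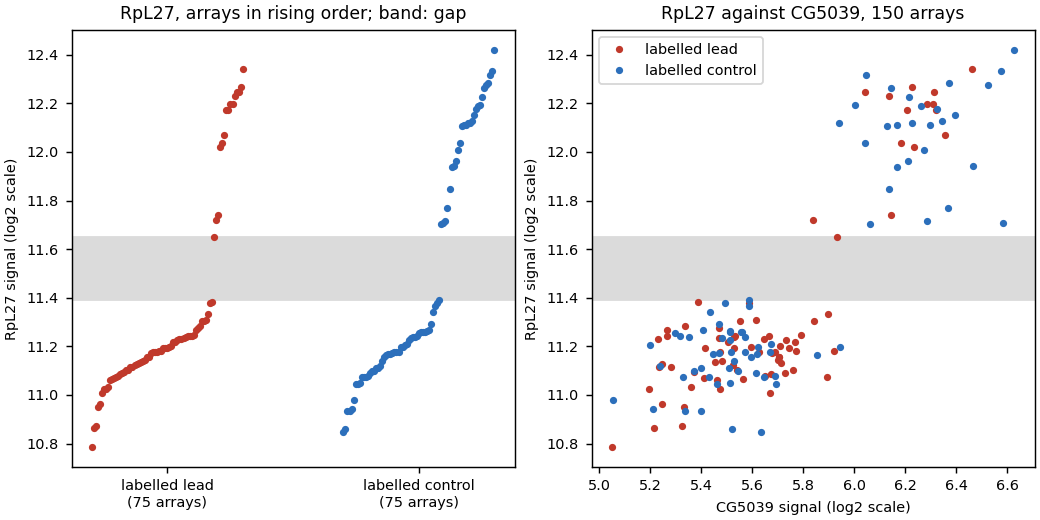
Left, RpL27 signal on the log2 scale for each array in rising order, for the 75 arrays labelled lead and the 75 labelled control, with the empty range from 11.39 to 11.65 as a grey band. Right, RpL27 against CG5039, which lies 3 genes away, on the 150 arrays, where the 42 arrays above the band average 6.24 in CG5039 and the 108 below 5.52, with some overlap.

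The signals most alike to RpL27 came from genes close to it on the chromosome. CG5039, 3 genes away in the order of measured genes, correlated with it at 0.868. It averaged 6.24 ± 0.178 on the 42 arrays above and 5.52 ± 0.186 on the 108 below, with ranges of 5.84 to 6.63 and 5.05 to 5.94 that overlapped slightly. CG11891, 56 genes away, was at 0.745 and CG11858, 59 genes away, at 0.709, on the same side as CG4743, 2 genes away, at 0.680 and Ude, 146 genes away, at 0.663. On the other side CG31380, SppL and CG17195, at 10, 21 and 7 genes, ran opposite to RpL27, at -0.74, -0.74 and -0.66. Both sides held genes of either sign. CG31300, 51 genes away on the first side, was at -0.56, and CG6283, 129 genes away on the second, at 0.538. A probe set of LpR1, a lipoprotein receptor gene 3 genes away on this second side, was at 0.609. It averaged 4.77, and the LpR1 probe set used in the gene order was at 0.140. A probe set that the platform table does not name was at -0.60.

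Of the 10 genes most alike to RpL27, 8 lay within 100 genes of it. Over 11890 genes with a place in the gene order, 68.4% had none of their 10 most alike genes so close, and 1.88% had 7 or more. Among the other members RpS28a had 6, RpL37A had 3, and the rest had 2 or fewer. A correlation above 0.5 in size was found for 5 of the 50 nearest genes of RpL27, for 1 of the next 50, for 5 of the next 100, for 2 of the next 200 and for 2 of the next 400. None of the 8915 genes on other arms reached it, and the highest there was 0.458. CG5039 itself had no wide gap, its largest being 0.066. Of the arrays, 34 lay above it, and all 34 were above in RpL27 too, while 8 arrays were above in RpL27 alone.

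**Figure D4:**
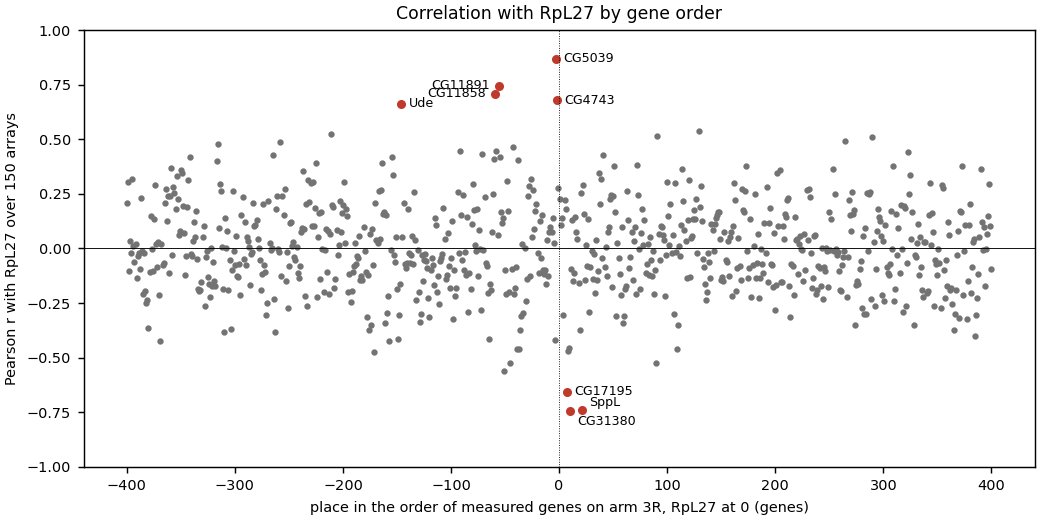
Pearson correlation with RpL27 over 150 arrays for the measured genes up to 400 places away on arm 3R, each at its place in the gene order with RpL27 at 0. Named red points exceed 0.6 in size, and they lie within 146 places of RpL27.

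No ribosomal protein gene differed between the labelled diets after adjustment. In limma's paired fit of lead minus control within lines, 0 of 41 members had a Benjamini-Hochberg adjusted p under 0.05, beside 0% of all 18769 probe sets. The unadjusted p was under 0.05 in 2 of 41, beside 2.61% of all probe sets, and both were lower in lead, beside 1.04%. The members' differences had a median of -0.0033 and ran from -0.15 to 0.024, with 19 higher and 22 lower in lead, against a median of 0.0020 over all probe sets. The median standard error was 0.028. The 95% interval of the difference lay within 0.1 of zero for 31 members and within 0.25 for 40.

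The 2 members at an unadjusted p under 0.05 were RpS10a and RpL27. RpS10a, a small subunit duplicate of low signal, ran from 5.43 over 6.11 to 6.89 on arrays labelled lead and from 5.52 over 6.18 to 6.94 on arrays labelled control. The diets overlapped almost fully, and lead was higher in 27 of 75 lines. The difference was -0.11 ± 0.044 (SE, n = 75 lines), with a 95% interval of -0.19 to -0.017, p = 0.0201 and an adjusted p of 1.00 in limma.

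RpL27 had a difference of -0.15 ± 0.067, a 95% interval of -0.28 to -0.014, p = 0.0307 and an adjusted p of 1.00 in limma, and lead was higher in 30 of 75 lines. Above its gap lay 15 arrays labelled lead and 27 labelled control. Within the arrays above, the lead and control means were 12.09 and 12.08, and within those below 11.15 and 11.15. Since the sides are set by RpL27 itself, these means are narrowed by the split and are no separate measure of the diet.

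The other members of smallest p were well short of the threshold. RpS18 had a difference of -0.051 with p = 0.176, RpS28a -0.065 with p = 0.347 and RpL24-like -0.045 with p = 0.396, all unadjusted p from limma. Among members with a positive difference the smallest unadjusted p from limma was 0.510, in RpS12, a small subunit gene known for its part in cell competition, with a difference of 0.012. RpL3, RpL22-like, RpS26 and RpS27A had differences of 0.013, 0.024, 0.012 and 0.0065. The mean of the 29 members above 11 was 12.53 ± 0.133 on arrays labelled lead and 12.53 ± 0.109 on arrays labelled control.

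By the labels, the line carried little of the variation. In limma's F-test of the line terms, 0 of 41 members had an adjusted p under 0.05, beside 0.0107% of all probe sets, and the smallest was 0.354 in RpL3. The unadjusted p was under 0.05 in 4 of 41, beside 12.3% of all probe sets, namely RpL3, RpL37A, RpS10a and RpS27A. Correlations of lead with control values over the 75 lines had a median of 0.063 over the 41 members, with 26 positive, and ran from -0.17 to 0.273. The highest were RpL41 at 0.273, RpL3 at 0.254, RpS27A at 0.254, RpL37A at 0.245 and RpS12 at 0.218.

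Most ribosomal protein genes differed by less than 0.1 between arrays of high and low MtnB. MtnB lay between 11.02 and 13.53 on 76 arrays, of which 40 are labelled lead, and between 4.40 and 8.99 on 74 arrays, of which 35 are labelled lead. The sides were set from a measured value and are no groups of the labels, so their differences, above minus below, are given without a test. None of the 41 members differed by 0.25 or more in size, beside 8.35% of all probe sets. At 0.1 or more, 0 members were higher, beside 12.4% of all probe sets, and 7 were lower, beside 17.7%. The median over members was -0.013, with 17 higher and 24 lower, against -0.018 over all probe sets. The difference was also measured by the SD within the sides, a size chosen after seeing the data. Of the 41 members, 12.2% differed by 0.5 SD or more, beside 20.3% of all probe sets. By direction, 5 members were lower and 0 higher, beside 2091 lower and 1712 higher of all 18769 probe sets. The 5 members were RpS20, RpS28-like, RpL28, RpL34a and RpL37-2. RpL28, of the large subunit, averaged 12.22 ± 0.0911 above and 12.29 ± 0.139 below, a difference of -0.069 ± 0.019, or -0.59 of that SD.

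Of the 7 lower members, 6 were among those of low signal. RpS28-like ran from 6.29 over a median of 6.95 to 7.94 on the 76 arrays above and from 5.99 over 7.16 to 8.01 on the 74 below. Its means were 6.92 ± 0.317 and 7.16 ± 0.383 (SD), a difference of -0.24 ± 0.057 (SE), and the ranges overlapped over nearly their whole length. RpS5b followed at -0.18 ± 0.10, RpL24-like at -0.15 ± 0.052, RpL37-2 at -0.12 ± 0.040, RpS10a at -0.12 ± 0.049 and RpL34a at -0.11 ± 0.034. The member of high signal was RpS20, of the small subunit, which ran from 12.02 over 12.34 to 12.73 on the arrays above and from 12.02 over 12.50 to 12.95 on those below. Its means were 12.35 ± 0.138 and 12.48 ± 0.216, a difference of -0.14 ± 0.030, or -0.77 of the SD within the sides. RpS20 differed by -0.13 within the arrays labelled lead and by -0.15 within those labelled control, and RpS28-like by -0.17 and -0.31.

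The 3 stalk genes had positive differences, at 0.077 ± 0.029 in RpLP2, 0.063 ± 0.021 in RpLP1 and 0.026 ± 0.024 in RpLP0, the last about its standard error. Positive as well, beside 38.1% of all probe sets, were 8 of 15 large and 4 of 11 small subunit members above 11. RpLP0-like had the highest difference, at 0.081 ± 0.047, and RpS26 and RpL32 were at 0.063 and 0.037. In 27 of the 41 members the difference had the same sign within both labelled diets. The share over all probe sets is not given here, so this count describes the members alone. The mean of the 29 members above 11 was 12.53 ± 0.0944 on the arrays above and 12.53 ± 0.145 on the arrays below, so the mean was alike and the spread was wider below.

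**Figure D5:**
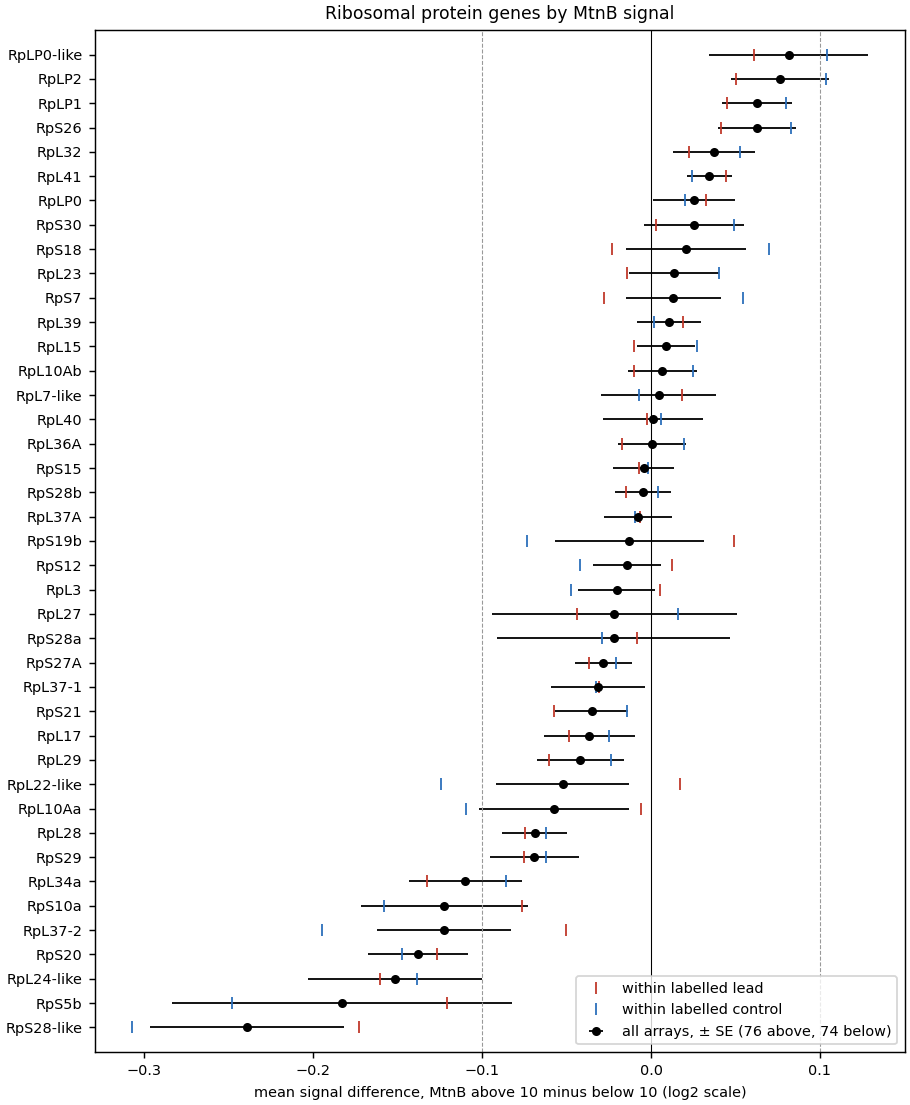
Difference in mean signal on the log2 scale between 76 arrays with MtnB above 10 and 74 arrays below 10 for the 41 ribosomal protein genes, as points with the standard error, and within the arrays labelled lead (red ticks) and control (blue ticks). Dashed lines mark 0.1 either way, and 7 genes lie beyond it on the lower side and 0 on the higher.

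Markers of several tissues differed between the same sides. The mean of 12 gut markers was 11.08 ± 0.541 above and 10.33 ± 0.901 below, with ranges of 9.49 to 11.90 and 7.87 to 11.60. The mean of 6 muscle markers was 10.06 ± 0.769 above and 10.55 ± 0.944 below, and that of 9 accessory gland markers 11.02 ± 0.380 and 11.24 ± 0.355. The 18 testis markers averaged 7.50 ± 0.217 and 7.55 ± 0.243, and the Act5C difference 1.44 ± 0.431 and 1.63 ± 0.533. Their part in the members' differences was not tested, beyond the Act5C difference, with which as a covariate 5 members were lower by 0.1 or more.

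Other genes of translation were set beside the members through lists of initiation factors, elongation and release factors, mitochondrial ribosomal proteins and nucleolar factors. None of the 40, 7, 69 and 11 measured genes had an adjusted p under 0.05 for diet in limma, beside 0% of all probe sets. An unadjusted p under 0.05 was found in 0, 1, 2 and 0 of them, beside 2.61% of all probe sets. Among elongation factors that gene was eEF1delta, at 0.051 with an unadjusted p of 0.0304 in limma. A gene's median correlation with the 29 members above 11 was 0.0227 at the median of all genes, and 20.3% of all genes exceeded 0.3. It exceeded 0.3 in 11 of 11 nucleolar factors of ribosome assembly, in 23 of 40 initiation factors, in 22 of 69 mitochondrial ribosomal proteins and in 3 of 7 elongation and release factors. The nucleolar factors were highest in mean on the lead array of line 213 and the control array of line 38, at 8.71 and 8.45, which are the arrays highest in ovary markers and RpS5b. Without that pair 10 of 11 exceeded 0.3, with a median of 0.556 against 0.544.

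Some genes of high median correlation with the members of high signal are named here for their known roles. They are not the highest in order, since eIF3m and eIF2Bepsilon, at 0.642 and 0.628, lay above eEF5. eEF1gamma, a subunit of the complex that recharges the elongation factor delivering transfer RNA, was at 0.750, and eEF5, which helps at difficult peptide bonds, at 0.570. The initiation factors eIF3i and eIF4A, a helicase, were at 0.686 and 0.676, and Rack1, a scaffold on the small subunit, at 0.676. Below -0.3 lay 8 of 40 initiation factors, named after their values were seen: eIF4H2, eIF3g2, eIF3d2, eIF4E5, eIF4E4, eIF4E3, eIF4E7 and eIF3f2, from -0.52 to -0.32. The share of all genes below -0.3 is not given here, so this count describes the factors alone. Of all genes, 5% lay below -0.46. Each of the 8 is 1 of several related genes for its factor. The same is true of eIF3d1, eIF3g1, eIF3f1 and eIF4E1, which were positive, at 0.652, 0.538, 0.493 and 0.423. Among nucleolar factors, 10 of 11 were higher on the arrays of MtnB above 10, beside 38.1% of all probe sets, with a median difference of 0.12. The count was again 10 and the median 0.12 without the pair of arrays.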

How the data were processed

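Whole-male RNA of 75 inbred lines on both diets was measured on 150 Affymetrix arrays. The table the authors deposited holds log2 probe-set signals; the log2 scale is inferred from their range of 1.93 to 14.04, and, of the software behind them, the sources used here say nothing. The 18952 probe sets include 183 array controls, which were dropped, and the other 18769 entered the tests without a filter on signal. No further normalization was applied. Every column matched a labelled array. Probe sets were named from the platform table where it gave 1 symbol, which held for 13646. Probe sets with several symbols stood for no gene, and 3 of these name a ribosomal protein gene. Gene order came from a Release 6 table, whose build need not be that of the array, so no coordinates are given.

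Diet was tested with limma 3.58.1 in R 4.3.3 as lead minus control with line as a block, and line by a moderated F-test, with Benjamini-Hochberg adjustment over all probe sets. The titles give each inbred line once per diet, which is the source of the pairing, and as a check the lead and control values correlated over lines at a median r of 0.0565. P-values for diet rest on the spread between lines of the lead minus control difference, with 1 array per line and diet. P-values for line set the differences between lines against the disagreement of the lead and control arrays within a line. The fit was checked on simulated data. Correlations, gaps and MtnB sides were computed in Python 3.11.15 with numpy 2.4.6 and pandas 2.3.3. For arrays, their number limits the precision.

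Members named are those of highest and lowest mean, largest SD, highest and lowest correlation with the others, highest line correlation, smallest diet p and largest MtnB difference, besides RpL27, duplicated genes and the genes most correlated with them. The members, lists and tests were chosen with earlier results of these data known. In the testis marker list, dhd is known as a female germ-line gene, so that list is used without it. Alternatives were the fit without the block, other normalizations, a signal filter, every probe set of a gene, an adjusted p under 0.1, rank correlation, medians, each diet alone and leaving out 8 lines. Promoter motifs were planned and are not analysed here.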

Additional observations from a re-analysis of the deposited data

How the results depend on the processing

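The count of members past the threshold was 0 for diet and 0 for line under every alternative run: quantile normalization, median centring, a filter on signal at its median, every probe set of a gene, an adjusted p under 0.1 and leaving out the 8 lines with the arrays least like the others. With no replicate block it was also 0 for diet, so the pairing changed no call. Leaving out the block or filtering on signal does not move a member's diet difference by construction. Of the 123 differences under the other 3 alternatives, 17 changed sign, none of them past the threshold. The median diet difference ran from -0.0044 to 0.0025, so its sign is not settled. The median correlation of members, 0.537, was 0.361 after quantile normalization and, in an alternative chosen after seeing the data, 0.663 without duplicated and -like members, and the others ran from 0.466 to 0.610. The arrays above the gap of RpL27 numbered 42, or 34 after quantile normalization with a gap of 0.127, and 38 without 8 lines. RpL27 has a single probe set, so no other could be tried. The median MtnB difference ran from -0.036 to -0.0080, and 5 to 8 members were lower by 0.1 or more; after quantile normalization and median centring all 7 lower members were shared. The nucleolar factors without the pair of arrays highest in ovary markers, the MtnB difference in SDs, and alternatives that left out that pair for the members or used the Act5C difference were also chosen after seeing the data.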
